A study of Gallus gallus with 10 samples.

Results

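PAX2, PAX5 and PAX6 are the 3 PAX transcription factor genes, of 12464 genes in all, that the table of normalised read counts lists for the chicken optic cup. They were taken by symbol, whatever their values, and each is described in every library. PAX1, PAX3, PAX4, PAX7, PAX8 and PAX9 were not analysed here. The libraries come from both eyes of 5 wild-type Dekalb white embryos at Hamburger and Hamilton stage 23, about embryonic day 4. The lens of 1 eye had been pulled out with forceps through a slit in its dorsal side, and both retinas were dissected 6 h later. The 5 retinas without a lens are called operated and the 5 retinas of the other, unopened eyes are called control. Loss of the lens and opening of the eye cannot be told apart in this design. Polyadenylated RNA of each retina was sequenced singly, and from the step between low values each library corresponded to 18670000 to 26010000 reads. Levels are normalised read counts, and comparisons are made within genes, since the values are not per transcript length.

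PAX proteins bind DNA through the paired domain. PAX6 also has a complete homeodomain, whereas PAX2 and PAX5 belong to a subfamily, with PAX8, that retains part of that domain. In the vertebrate eye PAX6 is needed for the eye field, the lens, the retinal progenitors and the rim of the cup that forms ciliary body and iris. PAX2 marks the optic stalk and the ventral cup around the optic fissure, and in mouse PAX2 and PAX6 repress each other at the border of stalk and cup. PAX5 is best known from B lymphocytes and from the midbrain-hindbrain boundary (the isthmus), where it acts with PAX2 and FGF8.

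After lens removal PAX5 rose about 10.4-fold, PAX2 rose about 1.49-fold and PAX6 fell to 0.764 of its control level (geometric means of the 5 within-embryo ratios). Each gene moved in the same direction in 5 of 5 embryos. Among all 12464 genes, 16.3% were higher in all 5 operated retinas and 14.6% were lower in all 5.

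**Figure D1:**
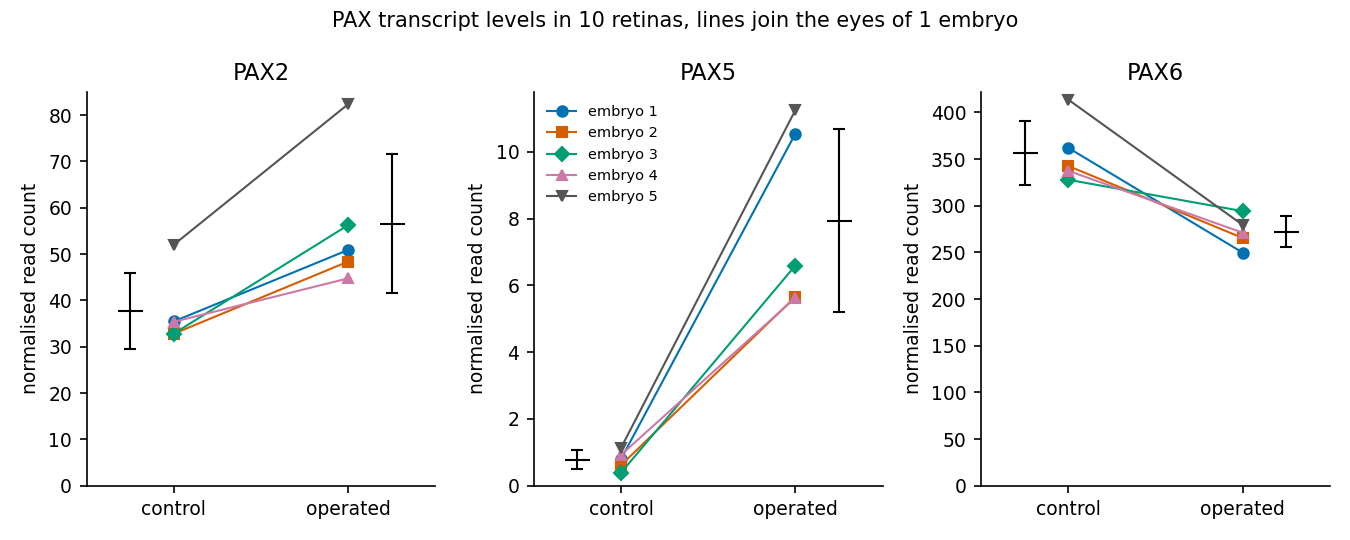
Normalised read counts of PAX2, PAX5 and PAX6 (y axes, from 0) in the control and operated retina of each embryo; lines join the eyes of an embryo, and bars beside the points are mean ± SD (n = 5). PAX5 lies between 0.389 and 1.13 in the control retinas and between 5.63 and 11.2 in the operated ones.

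PAX5 was barely detected in the unoperated retina. Its control levels were 0.802, 0.615, 0.389, 0.923 and 1.13 in embryos 1 to 5, which correspond to 19, 16, 9.25, 21 and 27 reads. In the operated eyes of the same embryos its levels were 10.5, 5.66, 6.59, 5.63 and 11.2, from 247, 145, 157, 133 and 210 reads. The groups did not overlap: the lowest operated level (embryo 4) was well above the highest control level (embryo 5). The exact 95% Poisson interval, which covers counting error only, reached 1.65 for that control library and began at 4.71 for that operated library. Every operated value exceeded every control value for 6.84% of all genes.

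The within-embryo ratio of PAX5 was 13.1, 9.19, 17.0, 6.10 and 9.93 in embryos 1 to 5. The mean level went from 0.772 ± 0.285 to 7.93 ± 2.74 (SD, n = 5 per group). On the log2(value + 1) scale, which understates the change of so low a gene, the change was 2.30 (SE 0.14, adjusted p = 3e-05). That p comes from limma with the embryo as a block, fitted to all 12464 genes, because the mean of PAX5 lay below the level of 10 used otherwise. In that fit 11.5% of genes were higher and 10.1% lower at adjusted p under 0.05. The log2 change was 2.70 with a pseudocount of 0.5 and 1.14 with a pseudocount of 5, and it passed with both.

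By this log2 change PAX5 ranked 6 from the top of the 12464 genes. Only 5 genes, PAX5 among them, had a ratio of group means of at least 10. A limit applies to its direction. The table holds genes above 1 in at least 5 of the 10 libraries, and PAX5 exceeded 1 in 1 control and 5 operated libraries, so it is listed through its operated values. Of the 65 genes above 1 in at most 1 control library, 50 were higher (76.9%), and PAX5 ranked 3 among them by log2 change.

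**Figure D2:**
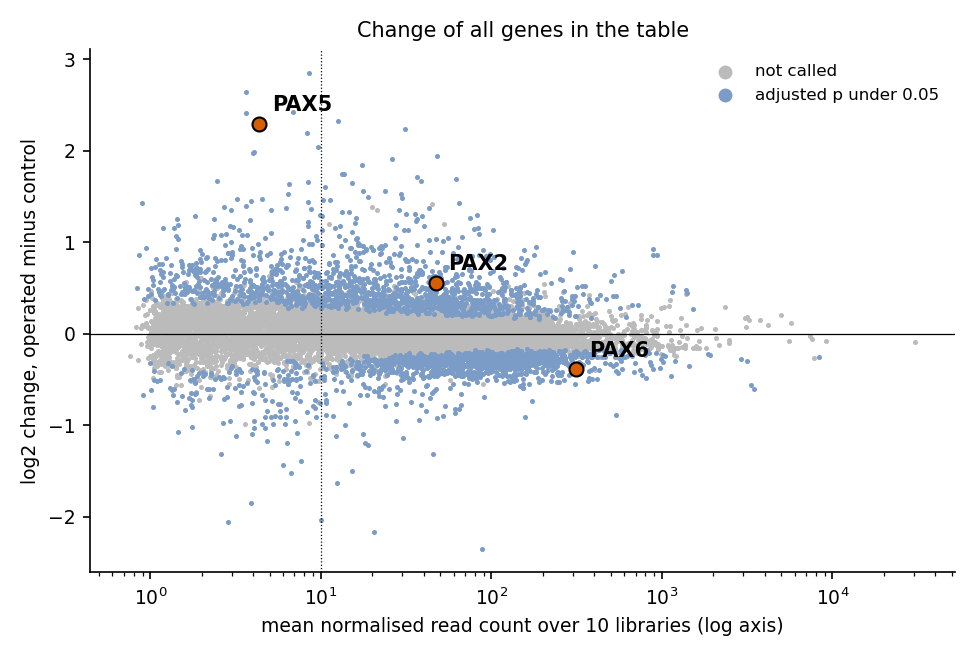
Log2 change after lens removal (y axis, operated minus control, on the log2(value + 1) scale) against the mean level over the 10 libraries (log x axis) for 12464 genes; blue points have adjusted p under 0.05, and the dotted line marks a mean of 10. PAX5 lies at 2.30 near the top of the low genes, PAX2 at 0.56 and PAX6 at -0.39.

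PAX2, the gene of ventral cup and stalk, was clearly expressed before surgery. Its control levels were 35.5, 32.8, 32.8, 35.4 and 52.0 in embryos 1 to 5, and its operated levels were 50.9, 48.4, 56.2, 44.8 and 82.3. Embryo 5 had the highest level in both eyes, and its control retina lay above 3 of the 5 operated retinas, so the groups overlapped. Each operated retina nevertheless exceeded the control eye of its own embryo, by ratios of 1.44, 1.47, 1.71, 1.27 and 1.58.

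The mean of PAX2 went from 37.7 ± 8.11 to 56.5 ± 15.0 (SD, n = 5), a within-embryo log2 change of 0.56 (SE 0.07, limma adjusted p = 0.0018). Of the 9076 genes whose mean reached 10, 10.6% were higher and 12.3% lower at that threshold. Without embryo 5 the levels were 34.1 ± 1.5 and 50.1 ± 4.83 (n = 4), the groups did not overlap, and the log2 change was 0.54 (limma adjusted p = 0.0077). PAX2 rested on 781 to 1240 reads in the control libraries and on 1058 to 1537 reads in the operated libraries.

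PAX6, the gene of retinal progenitors and rim, moved the other way. Its control levels were 362, 343, 328, 337 and 414 in embryos 1 to 5, and its operated levels were 249.8, 265, 294, 271 and 279.5. Every operated retina lay below every control retina, which held for 5.9% of all genes. The fall was 31.0% in embryo 1, 22.5% in embryo 2, 10.2% in embryo 3, 19.6% in embryo 4 and 32.4% in embryo 5. The mean went from 357 ± 34.2 to 272 ± 16.5 (SD, n = 5), with a log2 change of -0.39 (SE 0.07, limma adjusted p = 0.0061). PAX6 was covered by 5219 to 9863 reads in each library, so its counting error was small beside the spread between embryos.

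**Figure D3:**
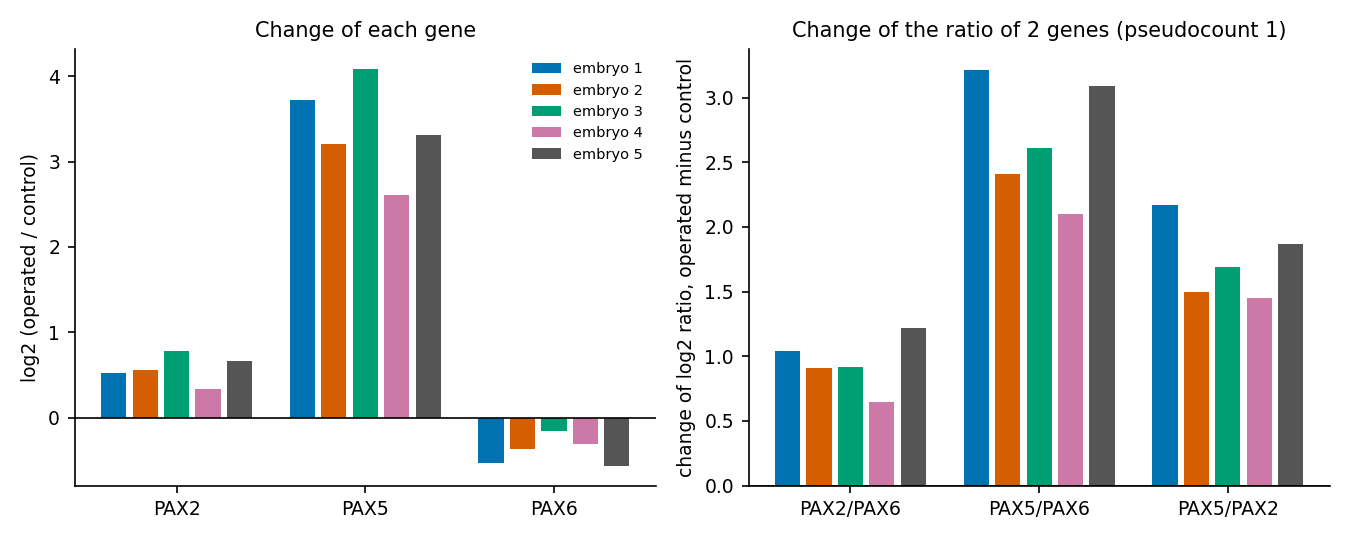
Left: log2 of the operated over the control level for PAX2, PAX5 and PAX6 in each of 5 embryos. Right: change, operated minus control, in the log2 ratio between 2 PAX genes within a library (pseudocount 1); all 15 bars on the right are above 0, and the lowest is 0.65 for PAX2 over PAX6 in embryo 4.

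The embryos did not rank alike for the 3 genes. In the control eyes embryo 5 had the highest level of all 3 genes, and embryo 3 had the lowest PAX5 and PAX6. For PAX2 and PAX5 the plain ratio of operated to control was largest in embryo 3 and smallest in embryo 4. The PAX5 ratio of embryo 3 rests on 9.25 control reads, and on the log2(value + 1) scale the change was larger in embryo 1 (2.68) than in embryo 3 (2.45). For PAX6 embryo 3 had the smallest fall, and embryos 5 and 1 the largest. With 5 embryos no correlation between the genes is given.

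A plain ratio between PAX genes within a library is not changed by a factor applied to that library. The pseudocount of 1 added before the ratio lets scaling enter, above all for PAX5. The log2 ratio of PAX2 to PAX6 shifted towards PAX2 by 1.04, 0.91, 0.91, 0.65 and 1.22 in embryos 1 to 5 (mean 0.95, SD 0.21). The ratio of PAX5 to PAX6 shifted by a mean of 2.68 (SD 0.46), and that of PAX5 to PAX2 by a mean of 1.74 (SD 0.29). The last of these gives the unequal change within the PAX2 and PAX5 subfamily, which was in favour of PAX5 in 5 of 5 embryos. PAX5 is listed through its operated values, so the limit on its direction applies to both ratios that hold it. Each shift had p = 0.063 by an exact two-sided sign-flip permutation test over the 5 pairs, also after adjustment over the 3 ratios, and 5 pairs cannot give a smaller p. With no pseudocount the mean shifts were 0.96, 3.77 and 2.81, and with a pseudocount of 5 they were 0.90, 1.52 and 0.63. After quantile normalisation they were 0.87, 2.55 and 1.68.

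Other genes of the territory that PAX2 marks were compared next. Of 12 genes of the ventral retina and stalk, 10 were tested, 5 rose, 0 fell and 5 did not pass, where 10.6% of all tested genes rose and 12.3% fell. Their median log2 change was 0.23, against -0.0013 for all tested genes. ALDH1A3, the ventral enzyme that makes retinoic acid, rose from 399 ± 91.7 to 600.1 ± 182 (log2 change 0.57, SE 0.12, limma adjusted p = 0.010), and without the embryo as a block it did not pass (adjusted p = 0.077). VAX1, a homeobox partner of PAX2 in stalk and fissure, had a log2 change of 0.63 and EPHB3, a ventral ephrin receptor, of 0.98, and both passed. In the fit without the block 3 of the list rose.

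Genes of the dorsal retina, away from the PAX2 domain, gave a similar median. Of 12, 10 were tested: 3 rose (TBX3, UNC5B and BAMBI), 1 fell (EFNB2) and 6 did not pass, with a median log2 change of 0.22. Of all tested genes 10.6% rose and 12.3% fell. In the fit of all genes 5 of the 12 dorsal genes rose and 0 fell, the same counts as for the 10 ventral genes. There BMP2 (limma adjusted p = 0.0020) and GDF6 (0.0498) were called higher and EFNB2 lost its call (0.053). In that fit 11.5% of all genes rose and 10.1% fell. TBX3, a dorsal T-box factor, rose from 37.8 ± 4.76 to 52.8 ± 7.46, and the netrin receptor UNC5B from 98.6 ± 18.9 to 138 ± 22.6. These calls were unstable: 0 dorsal genes were called higher without embryo 2 or without embryo 4, and 5 without embryo 1, with 1 without embryo 3 or embryo 5. EFNB2 was not called when any of the embryos was left out. The difference between the ventral and dorsal lists was not tested.

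**Figure D4:**
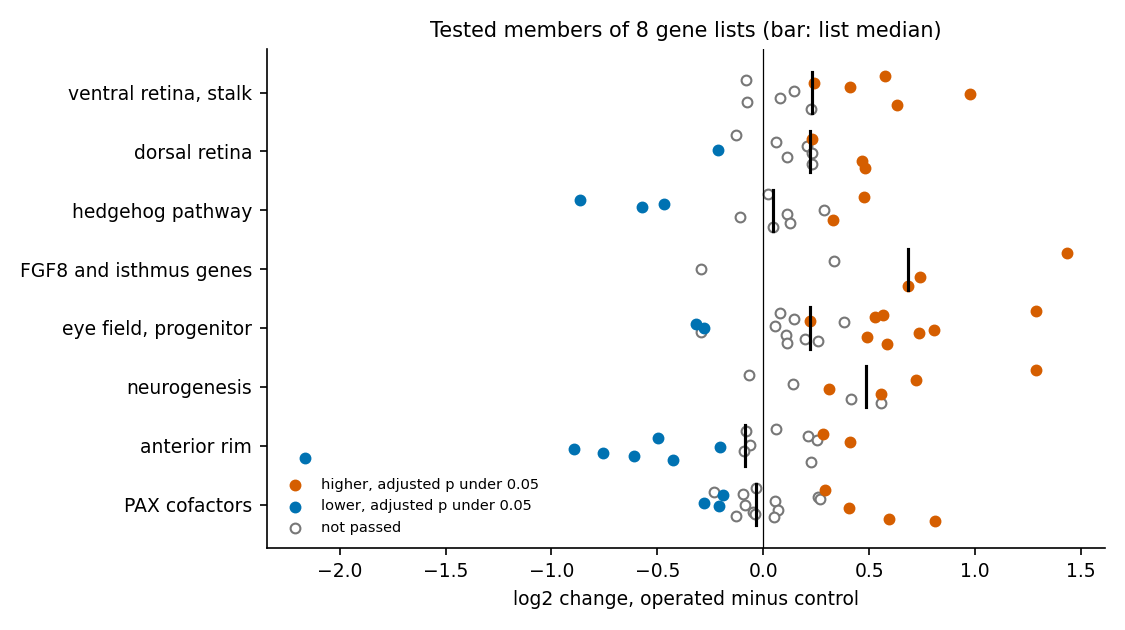
Log2 change (x axis, operated minus control) of every tested member of 8 gene lists; orange points rose and blue points fell at adjusted p under 0.05, open points did not pass, and the black bar is the list's median. The list of FGF8 and isthmus genes has a median of 0.68 over 5 tested genes, which was 0.33 over the 7 of its genes in the table.

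Hedgehog signals from the midline induce PAX2 in the stalk and hold back PAX6 in several vertebrates. Of 16 genes listed for that pathway 11 were tested, 2 rose (CDON and PTCH1), 3 fell and 6 did not pass. Their median log2 change was 0.04. Over all tested genes 10.6% were higher and 12.3% lower, and with 11 tested genes a difference from these shares was not tested. CDON, a co-receptor that is itself expressed in the retina, rose from 154 ± 27.5 to 217 ± 48.3 (log2 change 0.48, limma adjusted p = 0.019). Its call was lost without embryo 2 (adjusted p = 0.069), without embryo 4 (0.090) and without the block (0.061). Of this list GLI1 was at 26.8 ± 6.91 and 32.6 ± 5.78 (limma adjusted p = 0.26), and PTCH1 at 38.8 ± 13.3 and 48.3 ± 14.01 (limma adjusted p = 0.049). In the fit of all genes HHIP, also of this list, fell from 5.95 ± 3.02 to 1.99 ± 0.296 (log2 change -1.10, limma adjusted p = 0.0059). In that fit 2 of the 13 listed genes in the table rose and 4 fell, where 11.5% of all genes rose and 10.1% fell. PTCH1, GLI1 and HHIP are named after their values were seen. The 3 that fell among the 11 tested genes were DISP1, FOXD1 and GAS1. FOXD1 encodes a forkhead transcription factor, not a component of the pathway itself, and the counts of the list include it. Without the block FOXD1 (limma adjusted p = 0.057) and GAS1 (0.050) lost their calls and 1 of the list fell. The number that rose was 0 without embryo 2, without embryo 4 or without the block, and 1 without embryo 3 or under either other scaling.

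PAX2 and PAX5 share a network with FGF8 at the isthmus. Of 13 genes listed for it 7 are in the table and 5 were tested: FGF8, SPRY1 and SPRY2 rose, and OTX2 and IL17RD did not pass. Over all tested genes 10.6% were higher and 12.3% lower, and with 5 tested genes a difference from these shares was not tested. In the fit of all genes, from which PAX5 takes its p, the homeobox gene LMX1B of this list fell from 4.73 ± 1.97 to 1.58 ± 0.768 (log2 change -1.12, limma adjusted p = 0.0081). In that fit 3 of the 7 rose and 1 fell, where 11.5% of all genes rose and 10.1% fell. The list's median log2 change was 0.68 over the 5 tested genes and 0.33 over all 7. FGF8 was at 46.7, 32.4, 26.8, 25.1 and 40.02 in the control eyes of embryos 1 to 5 and at 92.7, 118, 78.5, 56.4 and 132 in the operated eyes. As for PAX2 and PAX5, the lowest operated value was that of embryo 4 and the highest that of embryo 5. For PAX5, however, embryos 4 and 2 were level within counting error, and so were embryos 5 and 1. The operated levels of embryos 1, 2 and 3 ranked differently in FGF8, PAX2 and PAX5. In the control eyes FGF8 was highest in embryo 1, whereas PAX2 and PAX5 were highest in embryo 5. The isthmus genes EN1, EN2, WNT1 and GBX2 were not analysed here.

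PAX6 acts in progenitors beside the other eye field genes. Of 20 eye field and progenitor genes 19 were tested: 8 rose, 2 fell and 9 did not pass, with a median log2 change of 0.22. Among all tested genes 10.6% rose and 12.3% fell. MEIS2, a homeobox gene whose product regulates PAX6 in lens and retina, fell with PAX6, from 322 ± 38.1 to 265 ± 23.6 (log2 change -0.28, limma adjusted p = 0.0083, lower in 5 of 5 embryos). The number that rose was 5 without embryo 2 or without embryo 4, and the number that fell was 1 without embryo 1, 2, 4 or 5. Of 16 neurogenesis genes, several of them targets of PAX6 in mouse, 8 were tested, 4 rose, 0 fell and 4 did not pass (median 0.49). FOXN4, a factor of amacrine and horizontal cell progenitors, rose from 99.9 ± 7.69 to 124 ± 9.90; its call was lost without embryo 2 (limma adjusted p = 0.075) and without embryo 4 (0.094). ATOH7, for which PAX6 is a direct activator in mouse, was at 28.8 ± 9.03 and 26.9 ± 6.76 (limma adjusted p = 0.65) and is named after its value was seen.

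At the rim of the cup, where PAX6 is high in vertebrates, 16 of 21 listed genes were tested, 2 rose, 7 fell and 7 did not pass, with a median log2 change of -0.09. Of all tested genes 10.6% rose, a share near that of the rim genes, and 12.3% fell. The 4 with the lowest p were GJA1, WNT2B and OTX1, which fell, and COL9A3, which rose. The number that rose was 1 without embryo 2, 3, 4 or 5, without the block or after trimmed mean rescaling.

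Of 32 listed genes for proteins that bind PAX factors or act with them, 19 were tested, 4 rose, 3 fell and 12 did not pass, with a median log2 change of -0.04. Over all tested genes 10.6% were higher and 12.3% lower. The share of cofactors that rose was above the former, and the difference was not tested. WWTR1, which encodes the Hippo pathway coactivator TAZ, a partner of several PAX proteins, rose from 10.4 ± 0.683 to 19.1 ± 1.88 (log2 change 0.81, SE 0.08, limma adjusted p = 0.00038). PAXIP1, named for binding to PAX2, fell from 67.9 ± 2.00 to 58.6 ± 2.24 and was lower in 5 of 5 embryos (limma adjusted p = 0.031). EYA3, a coactivator of homeobox factors, fell from 159 ± 2.85 to 139 ± 4.03 (limma adjusted p = 0.026). Without embryo 2, 3, 4 or 5 1 cofactor was called in each direction, and the calls of PAXIP1 and EYA3 were lost (adjusted p = 0.071 to 0.12 and 0.051 to 0.12).

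The genes whose pattern was most like each PAX gene were sought among the tested genes with a settled symbol, by Pearson's r of log2(value + 1) over the 10 libraries. These libraries share embryos and the surgery, so r is a description of likeness only. Each PAX gene changed after surgery, so genes chosen for likeness to it tend to change too, and their changes are no separate result. For PAX5 they were SEPT5, WWTR1, MXRA7, CNTFR and LIMK2, with r of 0.97 to 0.98, and with r of 0.57 to 0.80 after the group means were removed. CNTFR, a receptor subunit for ciliary neurotrophic factor, rose from 7.04 ± 1.70 to 27.96 ± 5.58. All 5 of these genes were higher in every operated than in every control retina, as were 6.84% of all genes. PAX5 itself separates the groups, so this was largely set by the choice of the genes. For PAX2 they were PTPRA, SLC7A5, CSRNP1, SEPT8 and AK4 (r 0.94 to 0.95, and 0.86 to 0.93 without the group means). For PAX6 they were ZBTB1, MTMR14, PIM1, SETD6 and DDX27 (r 0.95 to 0.96, and 0.72 to 0.87 without the group means). DDX27, a helicase of ribosome assembly, fell from 166 ± 12.7 to 122 ± 10.7, and SETD6, a lysine methyltransferase, from 46.4 ± 2.86 to 33.0 ± 2.61.

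The tissue label was checked against markers, since lens, surface ectoderm and pigment epithelium express PAX6 too. In these bulk samples fewer cells of a type and less RNA per cell cannot be told apart. All 5 retinal markers, such as RAX and SIX6, were present, and their summed level was 681 to 941 in the control and 912 to 1074 in the operated libraries. Of these, 2 rose, RAX among them, and 3 did not pass, where 10.6% of all tested genes rose and 12.3% fell. Without embryo 2 or without embryo 4 only 1 was called, and without embryo 1 the number was 4.

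Of 18 pigment epithelium markers, 13 are in the table, with a summed level of 355 to 859.5 in the control and 331 to 461 in the operated libraries, and 0 rose and 2 of 7 tested fell (TRPM1 and TYR). In the fit without the filter 6 of 13 were lower. Over all tested genes 10.6% rose and 12.3% fell, and in the fit without the filter 11.5% rose and 10.1% fell. Periocular mesenchyme markers (14 of 19 in the table) summed to 98.6 to 269 and 97.5 to 127, with 0 higher and 2 of 5 tested lower, among them LUM. Among 24 lens and surface ectoderm markers 13 are in the table, and their sum was 209.7 to 259.1 and 259.3 to 311. MAF and CRYBA4 rose and CRYAB fell, and the lens delta-crystallin gene ASL1 was at 2.62 ± 0.354 and 4.58 ± 1.20. In the fit without the filter 4 of these 13 were higher and 1 lower. The higher ones included ASL1 (limma adjusted p = 0.0089) and the tight junction gene CLDN1, which rose from 0.611 ± 1.11 to 6.68 ± 1.68 without overlap (limma adjusted p = 0.0002). Most control values of CLDN1 lay below 1, so it is listed through its operated values and the limit given for PAX5 applies. The 6 blood markers in the table summed to 32.3 to 381 and 114 to 322, with 0 called in either direction; without embryo 5, 4 rose. The 7 vessel markers summed to 76.3 to 130.2 and 64.3 to 92.7, with FLT1 lower. The number of pigment markers that fell was 1 without embryo 2, 4 or 5, and that of mesenchyme markers 1 without embryo 2 or 4. The call of CRYBA4 was lost without embryo 2 (limma adjusted p = 0.062) and that of CRYAB without embryo 4 (0.11) or embryo 5 (0.068). Without the block both were lost (0.18 and 0.10), and 1 pigment marker fell. No marker in the table was at 0 in any library.

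The PAX changes were also set beside the marker sums of single embryos. A plain sum follows its most abundant genes, so it is no measure of tissue content. In the control eye of embryo 1 TRPM1 alone was 245 of a pigment sum of 355. In embryo 5 the lens and ectoderm sum went from 209.7 to 271. There MAF went from 49.9 to 96.1 and CRYBA4 from 71.9 to 87.4, while CRYAB fell from 25.4 to 16.9. In embryo 1 the ratio of operated to control was 0.973 for the retinal, 0.967 for the pigment, 1.15 for the mesenchyme, 1.17 for the lens and ectoderm and 0.949 for the vessel markers. In the same embryo it was 1.44 for PAX2, 13.1 for PAX5 and 0.690 for PAX6. In embryos 2 to 5 the retinal ratio was 1.37, 1.54, 1.425 and 1.14, and the lens and ectoderm ratio 1.37, 1.20, 1.20 and 1.29. The pigment ratio was 0.642, 0.819 and 0.799 in embryos 2, 3 and 4. In these 3 embryos the ratio was 1.47, 1.71 and 1.27 for PAX2, 9.19, 17.0 and 6.10 for PAX5, and 0.775, 0.898 and 0.804 for PAX6. In embryo 5, where pigment and mesenchyme sums fell to 0.536 and 0.436 and the blood sum to 0.352, the PAX ratios were 1.58, 9.93 and 0.676. The blood sum of embryo 1 was 7.31 times that of its control eye, the largest such ratio of any marker sum in the 5 embryos. The part of blood and of the other tissues in the PAX changes was not tested.

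**Figure D5:**
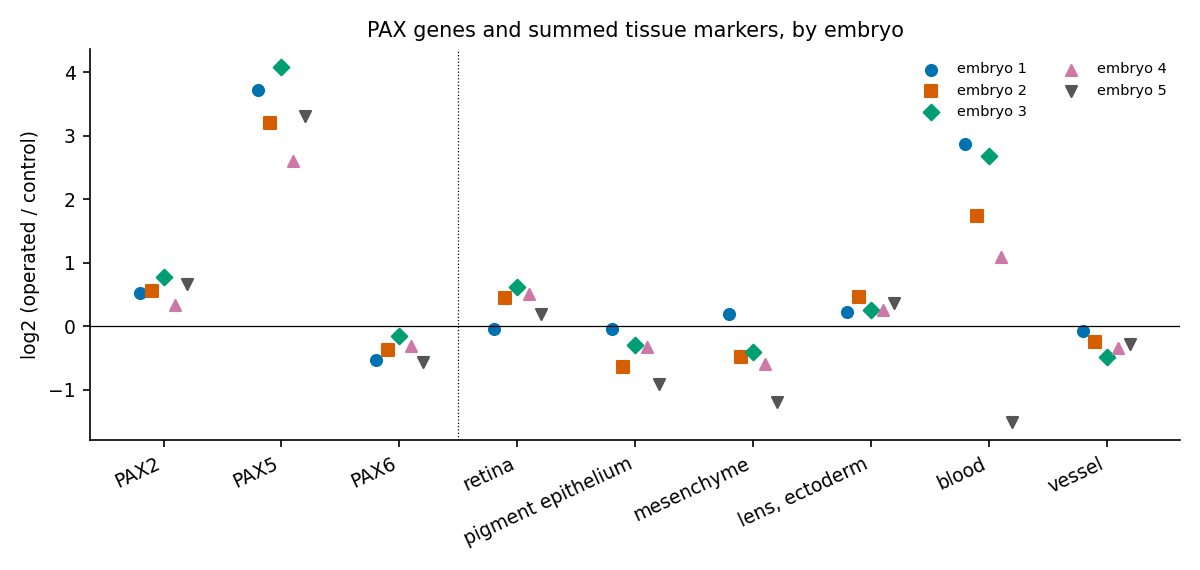
Log2 of the operated over the control level (y axis) for the 3 PAX genes and for the summed markers of 6 tissues, with 1 point per embryo. The blood sum goes down in embryo 5 and up in the other 4 embryos. PAX2 and PAX5 go up and PAX6 goes down in all 5, and PAX5 is listed through its operated values. The part of blood in the PAX changes was not tested. The lens and ectoderm sum goes up in all 5, and the retinal sum in all but embryo 1. Each sum follows its most abundant genes.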

How the data were processed

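The values are normalised read counts per gene, deposited by the authors as a signal with similar totals in each library. How they were scaled, which annotation was used and whether strand was counted is not given in the sources used here, so reads of antisense transcripts may be included. The submitters' processing notes list HISAT2 2.1.0, featureCounts, Subread 1.6.2, Trim Galore 0.6.4, SAMtools 1.9, FastQC 0.11.8 and the build GRCg6a, without saying what each did. All 10 libraries carry batch number 128. Reads behind a value were obtained from the worth of 1 read per library (0.0385 to 0.0536). Since 89.8% to 91.6% of values up to 400 reads were whole multiples within 0.01, no count model was used.

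The values were tested with limma 3.58.1 (R 4.3.3) on log2(value + 1), two-sided, with an intensity trend and a term for each embryo (the block), for 9076 genes with a mean of at least 10, or for all 12464 genes where a gene lay below. Benjamini-Hochberg adjusted p-values under 0.05 passed. The titles number the embryos; deviations from the group means correlated between the eyes of an embryo at 0.31, 0.76, 0.45, 0.68 and 0.59. Python 3.11.15 with scipy 1.17.1 gave the exact tests. The fit was tested on simulated data. The members, lists and alternatives were chosen with earlier results of these data known. Named are the 3 PAX genes, up to 4 called members of each of 15 lists in order of p (otherwise the 2 of highest mean) and the 5 genes most like each PAX gene. No sequence is shown, since none was in the sources used here. A few named genes are not reported, though list counts include them.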

Additional observations from a re-analysis of the deposited data

Results flagged for a closer look

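In groups of 5 libraries, 122 sets of values of the named genes were screened for a single value far from the rest (gap over range above 0.71, which chance gives in about 1 in 20 groups). Of 13 values that stood apart, 11 were from the control retina of embryo 5. PAX2 was 52.0 there, against 32.8 to 35.5 in the other control retinas; its change without embryo 5 is given with its levels. In the same library EPHB3 was 42.0, OTX1 29.3, MEIS2 389, SEPT8 76.3, AK4 35.8, ZBTB1 104 and MTMR14 39.2, all high. HES5 was 21.0 there, which was low, and the haemoglobin genes HBBR and HBZ were 143 and 108. SEPT8 and AK4 were chosen for likeness to PAX2 over these same libraries, and ZBTB1 and MTMR14 for likeness to PAX6. HBBR and HBZ both follow blood. These flags are therefore not separate findings, and the rate of 1 in 20 cannot be applied to their number. In the operated retina of embryo 5 the pigment gene TYR was 26.4, which was high. In the operated retina of embryo 1 the ephrin gene EFNB2 was 20.8, which was low. PAX5 and PAX6 had no such value in either group.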

How the results depend on the processing

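PAX2, PAX5 and PAX6 kept their direction and passed under every alternative that gave a value: pseudocounts of 0.5 and 5, no filter, a mean of at least 50 (PAX6 only), trimmed mean rescaling, quantile normalisation, no replicate block and leaving out each embryo. Their log2 changes ranged from 0.51 to 0.62, from 1.14 to 2.70 and from -0.44 to -0.33, with adjusted p of at most 0.042, 0.00024 and 0.033. With no replicate block adjusted p was 0.042, 5.2e-05 and 0.0050 in that order. The ratio shifts were 0.95 (PAX2 to PAX6), 2.68 (PAX5 to PAX6) and 1.74 (PAX5 to PAX2). With no replicate block each had adjusted p = 0.0079 (exact permutation of the 10 libraries). That is the smallest p this permutation can give, and it ignores the pairing. In the paired test 5 pairs allow no p below 0.063 and 4 pairs none below 0.125. Leaving out an embryo gave shifts of 0.88 to 1.02, 2.55 to 2.83 and 1.63 to 1.81. PAX5 is listed through its operated values under every one of these alternatives. The limit on its direction therefore applies to its own kept direction and low adjusted p, and to the 2 ratios that hold it.

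Over all tested genes 963 were higher and 1112 lower. With a mean of at least 50 the number higher was 412, of fewer genes tested. Without each embryo in turn the numbers ranged from 381 (embryo 4) to 1373 (embryo 1) higher and from 298 (embryo 4) to 1470 (embryo 1) lower; they were 433 and 371 without embryo 2, and 739 were lower without embryo 3. The cause was not tested. Of 634 values for the 55 other named genes 568 kept their call and direction, 64 lost the call, 2 gained it and 0 reversed. Depth limits the control level of PAX5, which rests on 9.25 to 27 reads a library.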

Other observations

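The 5 genes above PAX5 by log2 change, named after their values were seen, were NOS1, DUSP5, LTBP2, CLDN1 and SSTR2. NOS1, the neuronal nitric oxide synthase gene, was at 1.23 ± 0.433 and 15.9 ± 6.62, and DUSP5, an ERK phosphatase gene, at 0.199 ± 0.0604 and 7.05 ± 3.02. LTBP2, a matrix protein gene, was at 1.46 ± 0.397 and 12.3 ± 2.90, and the somatostatin receptor gene SSTR2 at 3.34 ± 0.871 and 21.8 ± 8.37 (control, then operated, SD, n = 5). DUSP5 and CLDN1, like PAX5, are listed through their operated values, so the limit on direction given for PAX5 applies to them. The lowest control value of NOS1 was 0.841, below 1, so its listing also depended in part on its operated values. Of the 3388 genes with a mean under 10, 470 were higher (13.9%) and 159 lower in the fit of all genes. In that fit 11.5% of all genes were higher and 10.1% lower, and the difference from these shares was not tested.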
